A study of Solanum lycopersicum with 6 samples.

Results

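The 10 tomato genes described here split sucrose, restrain its splitting or rebuild it, and were followed in the pericarp (fruit wall) of the fruit shoulder, the end nearest the stalk. They were chosen by locus number, and all 10 were found among the 35768 gene models of the deposited table. They comprise the cell wall invertases LIN5, LIN6, LIN7 and LIN8, the vacuolar invertase TIV1, the invertase inhibitor INVINH1, the sucrose synthases SUS1, SUS3 and SUS4, and a sucrose phosphate synthase, SPS. The 6 RNA sequencing libraries came from Solanum lycopersicum cultivar Ailsa Craig at 30 DPA and formed 2 groups of 3. The first group is wild type (WT) fruit, and the second is fruit of slgols2 plants, knocked out by CRISPR-Cas9 editing. All plants shared a greenhouse regime of 16 h light at 25 °C and 8 h dark at 18 °C. How many edited lines the slgols2 fruit came from, and whether replicates were separate plants, is not given in the sources used here, so the spread behind every p-value is that between these libraries and may be technical.

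Sucrose is the form in which carbon reaches the fruit through the phloem. Invertases split it irreversibly into glucose and fructose, in the cell wall or in the vacuole according to the enzyme, and small inhibitor proteins can hold them inactive. Sucrose synthases split it reversibly with UDP, giving UDP-glucose and fructose, while sucrose phosphate synthase catalyses the step that commits hexose phosphates to new sucrose. In tomato, cell wall invertase is known for its part in fruit sugar content and vacuolar invertase for setting the balance of sucrose and hexose in ripe fruit. Galactinol synthase, the enzyme that the abbreviation GolS usually denotes, lies on a neighbouring branch, the raffinose family sugars, which are built on sucrose.

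The deposited unit is FPKM, fragments scaled by gene length and by library depth. Depths recovered from the values ran from 15590000 to 17940000 fragments, and 14878 to 15647 gene models per library had at least 1 FPKM. Replicate 3 of slgols2 stood apart from its group. On the log2(FPKM + 1) scale, across the 15695 genes tested and as a description, it correlated with the other slgols2 libraries at 0.849 and 0.869 and with WT libraries at 0.878 to 0.903. The level of the edited gene was not analysed here. Marker lists recalled for other features of the fruit also differed between libraries. FPKM sums of 5 epidermis and cuticle loci, none at 0, were 499 to 574 in WT and 126 to 361 in slgols2. CD1, CER6 and CYP86A69 separated as the sum did, while CD2 and MYB12 had overlapping groups. CD2 stood at 6.46 to 9.25 FPKM in WT and was highest in slgols2 replicate 3, at 13.7 FPKM. FPKM sums of 8 antenna loci of green tissue, 2 at 0, were 858 to 1723 in WT and 290 to 355 in slgols2. Those of 6 heat shock chaperone loci, 1 at 0, were 356 to 515 in WT but 8930, 6680 and 357 in slgols2 replicates 1, 2 and 3. Those of 8 seed storage loci, 1 at 0, were 5.90 to 34.9 in WT and 0.962 to 52.4 in slgols2. Those of 7 ripening loci, with E4 at 0, were 28.2 to 39.4 in WT and 28.9 to 36.2 in slgols2. PSY1 made up most of this sum, at 23.3 to 33.4 FPKM over all libraries, with overlapping groups. NOR, RIN, ACS2 and ACS4 were each lower in every slgols2 library than in any WT library. Such separation, in either direction, held for 19.1% of gene models with a mean of at least 0.25 FPKM. RIN and ACS4 were low, RIN at 0.339 to 0.835 FPKM in WT and 0.0784 to 0.160 in slgols2. ACS4 stood at 0.290 to 0.984 FPKM in WT and 0.0204 to 0.229 in slgols2. NOR stood at 0.522 to 1.69 FPKM in WT and 0.0211 to 0.0831 in slgols2, and ACS2 at 2.66 to 7.40 and 0.724 to 2.58. Polygalacturonase (PG2a) did not exceed 0.0091 FPKM in any library.

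The names could be set against RefSeq (assembly SLM_r2.1), which does not carry these locus numbers. RefSeq places a gene of the listed name, or for INVINH1 the invertase inhibitor CIF1, for all 10 on the chromosome of the locus, at most 2.52% away in gene order. LIN5 and LIN7 are direct neighbours on chromosome 9, LIN6 and LIN8 on chromosome 10, and INVINH1 and the inhibitor VIF on chromosome 12, with 0 gene models between them in the table. Neighbours can share reads where their sequences are near-identical, and how alike these pairs are was not checked, as no sequence was at hand. How the counting handled such reads is not given in the sources used here, so values within these pairs may carry that uncertainty. The gene length behind each FPKM value was 0.864 to 1.07 times the RefSeq gene span, introns included, for 9 of the 10. For SUS4 it was 34572 bases against a span of 6434, a ratio of 5.37, so the SUS4 value in FPKM is low for its reads.

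Levels in WT fell into 3 tiers. SUS1, at 318 ± 40.4 FPKM, and INVINH1, at 283 ± 103 FPKM (SD, n = 3), ranked 125 and 140 among all gene models by mean FPKM. The middle tier held TIV1 at 45.7 ± 30.8, SPS at 44.3 ± 3.12 and SUS3 at 43.5 ± 6.04 FPKM, which did not differ among themselves beyond their spread, with SUS4 below them at 3.12 ± 0.323 FPKM. The cell wall invertases stood lowest, at 0.627 ± 0.0924 FPKM for LIN7, 0.606 ± 0.104 for LIN8, 0.349 ± 0.489 for LIN5 and 0.256 ± 0.212 for LIN6 (SD, n = 3), and these neighbours in order also lay within each other's spread. SUS1 and INVINH1 likewise overlapped. In slgols2 the order was SUS1, INVINH1, TIV1, SUS3, SPS, SUS4, LIN5, LIN7, LIN6 and LIN8.

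**Figure D1:**
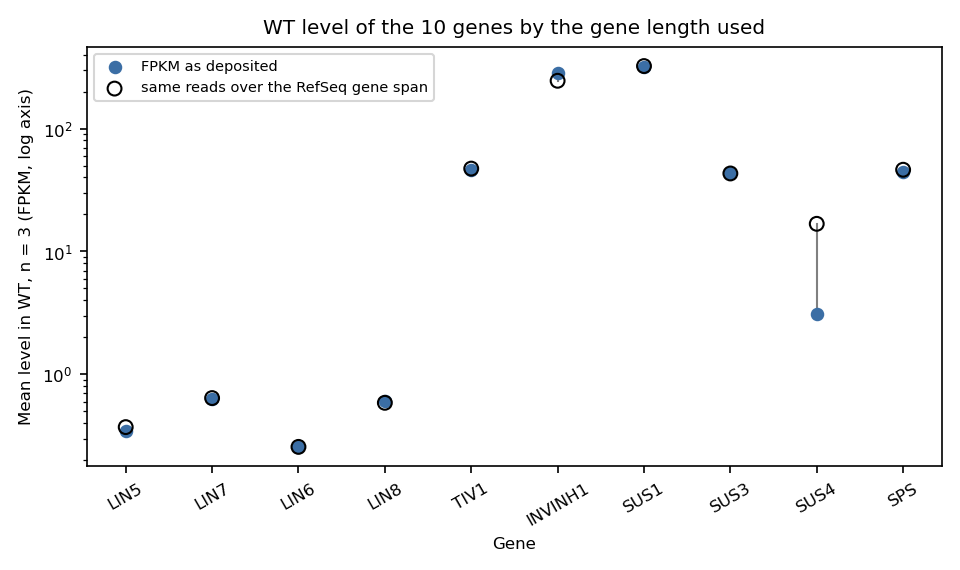
Mean WT level of the 10 genes (n = 3, log axis) as deposited in FPKM (filled) and with the same reads spread over the RefSeq gene span (open). SUS4 moves from 3.12 to 16.8, and the order of the 10 genes is the same on both scales.

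No gene of the set passed the test of slgols2 against WT, and LIN8, too low to enter it, passed in a fit without the filter. The 6 with a mean of at least 1 FPKM over the libraries were tested with limma on log2(FPKM + 1), where 0 of 6 passed an adjusted p of 0.05, against a background of 0.229% of all tested genes. An unadjusted limma p under 0.05 was found for 1 of them, SUS4, and for 1877 of all 15695 tested genes. With limma-voom on recovered reads 0 of 6 passed, but only 1 of all 15694 genes did, so this 0 adds little. Groups that did not overlap, with all 3 values of one genotype above all 3 of the other, were found for SUS4 and LIN8, 2 of the 10, against 19.1% of gene models with a mean of at least 0.25 FPKM, a level all 10 reach. In such bulk RNA, fewer cells of a type and less RNA per cell cannot be told apart.

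**Figure D2:**
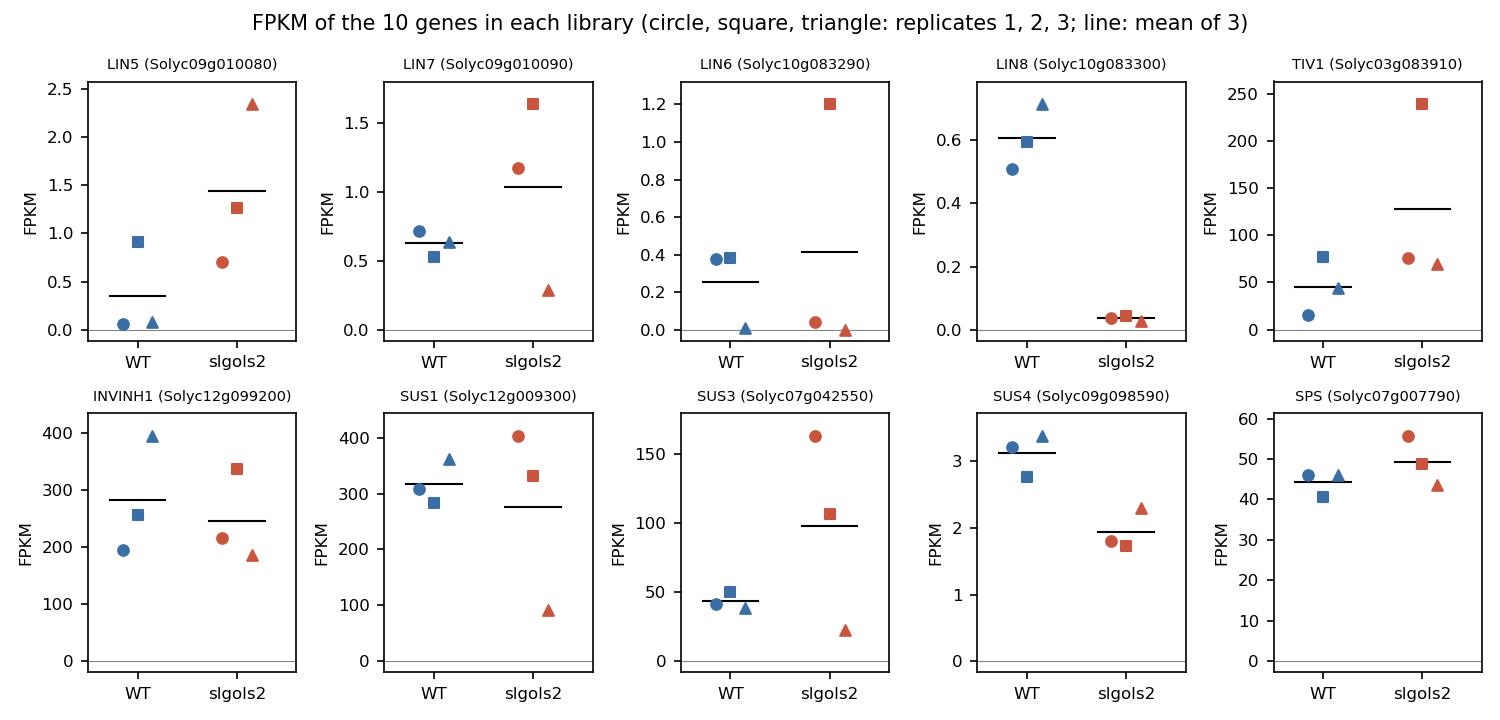
FPKM of each gene in the 6 libraries, by genotype, with replicates 1, 2 and 3 as circle, square and triangle and lines at the group means. LIN8 and SUS4 have separate groups, while SUS1 and SUS3 are lowest in slgols2 replicate 3, at 92.1 and 22.7 FPKM.

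Among the cell wall invertases, LIN8 had the largest ratio between the genotype means, at very low levels. LIN8 (Solyc10g083300.2) stood at 0.508, 0.594 and 0.715 FPKM in WT replicates 1, 2 and 3 and at 0.0380, 0.0425 and 0.0278 FPKM in slgols2. These are 39, 45 and 49 reads in WT and 3, 3 and 2 reads in slgols2. Every WT library lay above every slgols2 library, including slgols2 replicate 3. Summed reads per depth were 16.6 times higher in WT, with an exact interval for counting error alone of 8.21 to 39.3. LIN8 lay under the filter of 1 FPKM and was therefore not tested with the others. With no filter it passed (limma adjusted p = 0.0258, log2 change -0.63, lower in 3 of 3 libraries), as did 0.219% of genes, and with a pseudocount of 0.1 there (limma adjusted p = 0.0224), as did 0.323%. It did not pass with a filter of 0.25 FPKM, where 0.327% of genes did (limma adjusted p = 0.119), or with limma-voom at that filter, where 0.0105% did (adjusted p = 0.0756, log2 change -3.83). In the unfiltered fits that left out 1 library it passed without WT replicate 3 (limma adjusted p = 0.04998) and not in the other 5, where adjusted p ran up to 0.168. Those settings, apart from the first unfiltered fit, were chosen after the values were seen. The epidermis and antenna sums separated the genotypes in the direction of LIN8, and of SUS4 below. The epidermis loci CD2 and MYB12 did not separate them. The part of these tissues in the LIN8 and SUS4 values was not tested.

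LIN6 (Solyc10g083290.4), the neighbour of LIN8, did not share that pattern. It stood at 0.375, 0.380 and 0.0114 FPKM in WT replicates 1, 2 and 3, or 37, 37 and 1 reads. Replicates 1 and 2 of slgols2 had 0.0395 and 1.20 FPKM, or 4 and 109 reads. In slgols2 replicate 3 it had 0 reads, where a count of 0 allows up to 0.0325 FPKM. Both genotypes thus held libraries with and without appreciable LIN6, and the groups overlapped throughout. The direction of its log2 change depended on the scale. It was 0.085 with no filter (limma adjusted p = 0.942) and -0.16 with a pseudocount of 0.1 there (limma adjusted p = 0.972). With limma-voom at a filter of 0.25 FPKM it was -1.12 (adjusted p = 0.864). The highest LIN6 library, slgols2 replicate 2, also had the highest seed storage sum (52.4 FPKM), but WT replicate 3, with the next highest sum (34.9), had 1 LIN6 read; the part of seed RNA in LIN6 was not tested.

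LIN5 (Solyc09g010080.3), the invertase tied to fruit sugar content in tomato, had few reads in WT. It stood at 0.0556, 0.914 and 0.0777 FPKM in WT replicates 1, 2 and 3, or 4, 65 and 5 reads. The slgols2 libraries had 0.702, 1.27 and 2.34 FPKM, or 52, 84 and 158 reads. WT replicate 2 lay above slgols2 replicate 1, so the groups overlapped. With no filter its log2 change was 0.86 and did not pass (limma adjusted p = 0.458), and the fits that left out 1 library gave 0.60 to 1.14. On less compressed scales the change was 2.19 with a pseudocount of 0.1 (limma adjusted p = 0.442) and 2.89 with limma-voom at a filter of 0.25 FPKM (adjusted p = 0.363), short of the threshold in both.

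LIN7 (Solyc09g010090.4), next to LIN5, stood at 0.714, 0.530 and 0.639 FPKM in WT, or 45, 33 and 36 reads. Its slgols2 values were 1.17, 1.64 and 0.288 FPKM, or 76, 95 and 17 reads. Replicates 1 and 2 of slgols2 lay above all WT libraries and replicate 3 below them. The neighbours LIN5 and LIN7 thus had opposite extremes in slgols2 replicate 3, highest of all libraries for LIN5 and lowest for LIN7. The unfiltered fit gave LIN7 a log2 change of 0.26 (limma adjusted p = 0.756).

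The vacuolar invertase had a higher level than the 4 cell wall invertases in every library. TIV1 (Solyc03g083910.4) stood at 15.6, 77.3 and 44.2 FPKM in WT replicates 1, 2 and 3. The slgols2 replicates had 76.1, 239 and 69.6 FPKM. The lowest values were from WT and the highest from slgols2, but WT replicate 2 lay above slgols2 replicates 1 and 3. The mean was 2.81 times that of WT, at 128 ± 96.1 against 45.7 ± 30.8 FPKM (SD, n = 3 each), and the log2 change of 1.49 (SE 0.71, 95% interval -0.22 to 3.20) did not pass (limma adjusted p = 0.471). WT libraries differed 4.94-fold among themselves, a log2 SD larger than that of 97.7% of tested genes within WT. The change was 0.88 without WT replicate 1 and 0.92 without slgols2 replicate 2, so these libraries carried much of it.

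The inhibitor was high in both genotypes. INVINH1 (Solyc12g099200.2), whose protein binds and inactivates invertase, stood at 196, 257 and 396 FPKM in WT replicates 1, 2 and 3. In slgols2 it stood at 216, 337 and 187 FPKM, within or just below the WT range. The log2 change was -0.18 (SE 0.35, 95% interval -1.03 to 0.66; limma adjusted p = 0.869), and it turned to 0.089 without WT replicate 3. In every library INVINH1 exceeded the summed cell wall invertases, by 106 to 275 times in WT and by 70.3 to 111 times in slgols2 in FPKM. The neighbouring inhibitor VIF (Solyc12g099190.1) stood lower, with a WT mean of 29.6 ± 8.23 and an slgols2 mean of 22.5 ± 5.84 FPKM (SD, n = 3 each) and a log2 change of -0.37 (limma adjusted p = 0.647).

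SUS1 (Solyc12g009300.3), the most abundant sucrose-splitting gene, was lowest in 1 mutant library. It stood at 309, 283 and 362 FPKM in WT replicates 1, 2 and 3. In slgols2 it stood at 404, 332 and 92.1 FPKM. Replicate 1 of slgols2 lay above the WT range, replicate 2 within it, and replicate 3 below every WT library. The log2 change of -0.45 (SE 0.56, 95% interval -1.80 to 0.90) did not pass (limma adjusted p = 0.789) and became 0.21 without slgols2 replicate 3.

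SUS3 (Solyc07g042550.3) was also lowest in slgols2 replicate 3, and its mutant libraries spread more widely. It stood at 41.2, 50.3 and 38.9 FPKM in WT and at 164, 107 and 22.7 FPKM in slgols2 replicates 1, 2 and 3. Replicates 1 and 2 of slgols2 exceeded every WT library and replicate 3 was below every WT library. The log2 change was 0.76 (SE 0.70, 95% interval -0.93 to 2.45; limma adjusted p = 0.703). Without slgols2 replicate 3 it was 1.59 with an adjusted p of 0.0544 (limma), short of the threshold that 1.75% of genes passed in that fit. It was 0.19 without slgols2 replicate 1 (limma adjusted p = 0.946) and 0.50 without slgols2 replicate 2 (limma adjusted p = 0.887). The range within slgols2 was 7.22-fold, a log2 SD above that of 98.0% of tested genes in that genotype. The heat shock chaperone sum was high in the same libraries, at 8930 and 6680 FPKM against 357 in replicate 3. HSP101, a locus of that list, did not follow the sum, at 209, 80.9 and 97.7 FPKM in slgols2 replicates 1, 2 and 3. The part of heat shock in the SUS3 values was not tested.

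SUS4 (Solyc09g098590.3) was the tested gene whose genotypes separated. It stood at 3.22, 2.76 and 3.39 FPKM in WT and at 1.80, 1.74 and 2.30 FPKM in slgols2, from between 963 and 1943 reads a library. All 3 slgols2 libraries were below all 3 WT libraries, replicate 3 included. The log2 change was -0.49 (SE 0.15, 95% interval -0.84 to -0.13), and its unadjusted p of 0.0148 became 0.295 after adjustment over all genes (limma). This standard error was the smallest of the 6 tested genes, on a scale that compresses values as low as those of SUS4. On less compressed scales the change was -0.66 with a pseudocount of 0.1 (limma adjusted p = 0.298) and -0.69 with limma-voom (adjusted p = 0.265). With 1 library left out, the change of log2(FPKM + 1) stayed between -0.57 and -0.44. In the fit with sample quality weights, in which 12.9% of all genes passed, SUS4 (limma adjusted p = 0.0254, log2 change -0.56) and SUS3 (limma adjusted p = 0.0471, log2 change 1.27) passed too; it gave slgols2 replicate 3 a weight of 0.173. The SUS4 gene model is much longer than the RefSeq gene, and whether reads from elsewhere in that stretch were counted was not tested. If all reads came from the RefSeq span, the level would be 16.8 ± 1.74 in WT and 10.5 ± 1.66 in slgols2 on the FPKM scale (SD, n = 3), with the same ratio between genotypes.

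SPS (Solyc07g007790.3), the sucrose-making enzyme of the set, varied little in either genotype. It stood at 46.0, 40.7 and 46.1 FPKM in WT and at 55.8, 48.7 and 43.5 FPKM in slgols2. The groups overlapped, and the log2 change of 0.15 (SE 0.18, 95% interval -0.28 to 0.57) did not pass (limma adjusted p = 0.778). Its log2 SD was above that of 21.8% of tested genes within WT and of 26.2% within slgols2.

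**Figure D3:**
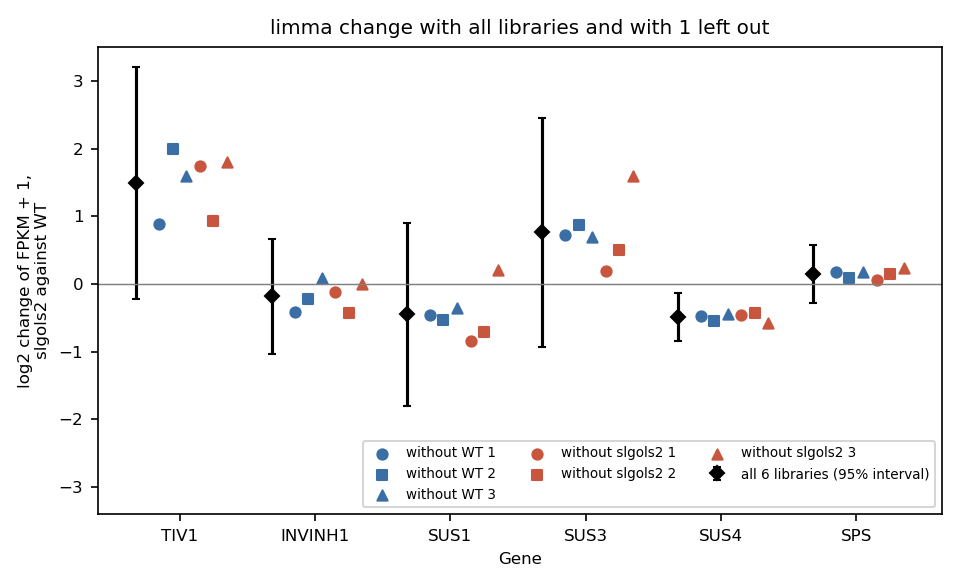
limma log2 change (slgols2 against WT) of the 6 tested genes with all libraries (diamond, 95% interval) and with each library left out (coloured by the genotype of the library left out). Without slgols2 replicate 3 SUS1 moves from -0.45 to 0.21 and SUS3 from 0.76 to 1.59, without slgols2 replicate 1 SUS3 moves to 0.19, and SUS4 stays between -0.57 and -0.44 whichever library is left out.

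Set side by side in FPKM, the 8 sucrose-splitting genes made a larger pool in 2 mutant libraries and a smaller one in the third. Their sum was 371, 415 and 450 FPKM in WT and 647, 684 and 189 FPKM in slgols2 replicates 1, 2 and 3. SUS1 supplied 83.3%, 68.0% and 80.5% of it in WT and 62.4%, 48.5% and 48.7% in slgols2, shares that did not overlap. TIV1 supplied 4.22%, 18.6% and 9.82% in WT and 11.8%, 35.0% and 36.8% in slgols2, with an overlap between WT replicate 2 and slgols2 replicate 1. The cell wall invertases together were at most 1.40% in any library. The FPKM ratio of SUS1 to SUS3 was 7.50, 5.62 and 9.30 in WT and 2.47, 3.10 and 4.06 in slgols2, lower in all 3 mutant libraries. These sums and ratios were formed after the values were seen and carry no test, and those within a library do not say which of its parts differed.

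**Figure D4:**
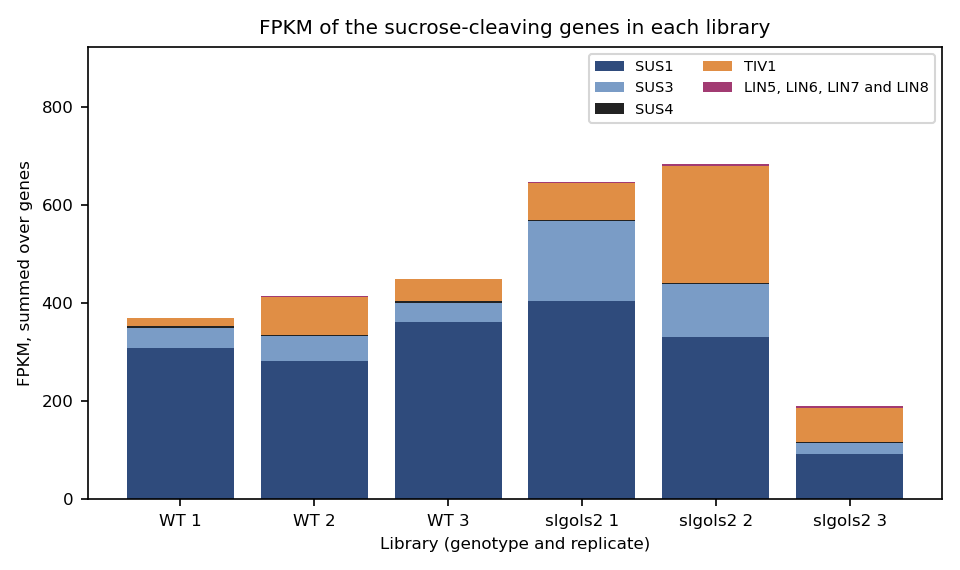
FPKM of the sucrose-splitting genes stacked in each library. The stack is highest in slgols2 replicate 2 (684 FPKM) and lowest in slgols2 replicate 3 (189 FPKM), and TIV1 takes its largest shares there, 35.0% and 36.8%.

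The wider sucrose pathway was read from 4 lists of recalled loci. Of 41 loci, 5 were dropped because RefSeq places a gene of that name elsewhere, 13 were placed as recalled, and 23 had no name that could be checked, so roles are given only for named genes. Of the 36 kept, 25 were tested and 0 passed in limma, against 0.229% of all tested genes. An unadjusted limma p under 0.05 was found for 2 of the 25, beside 1877 of all 15695 tested genes. With limma-voom 0 of the 25 passed, where 1 of all 15694 genes did. In mean log2 level 9 were higher and 16 lower in slgols2, with a median change of -0.15, beside 0.0013 over all tested genes.

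In the list recalled for other sucrose cleavage, which includes the inhibitor VIF, 11 of 17 loci were tested. Means were higher for 6 and lower for 5, with a median log2 change of 0.024. Only VIF was placed by name in RefSeq, so the list title gives the other loci no checked role. The most abundant, Solyc04g081440.3, stood at 43.2 ± 6.05 FPKM in WT and 44.3 ± 9.77 in slgols2 (SD, n = 3; log2 change 0.02, limma adjusted p = 0.980). The single remaining locus listed for sucrose synthesis, Solyc10g081660.2, stood at 9.58, 8.95 and 8.45 FPKM in WT. In slgols2 it stood at 8.36, 7.75 and 7.85 FPKM, with groups that did not overlap (log2 change -0.15, limma adjusted p = 0.688).

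Of 10 sugar transport loci 6 were tested, 1 with a higher and 5 with lower means, and a median of -0.20. SUT1, a sucrose carrier of the plasma membrane, stood at 26.4, 68.6 and 27.7 FPKM in WT and at 19.5, 33.4 and 56.1 FPKM in slgols2, with overlapping groups (log2 change -0.15, limma adjusted p = 0.936). The list member Solyc05g024260.3 stood at 10.7, 16.3 and 22.1 FPKM in WT and at 12.9, 1.27 and 22.3 FPKM in slgols2. Its log2 change of -0.89 (limma adjusted p = 0.714) came from slgols2 replicate 2 and was 0.10 without it.

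Of 8 loci for hexose and UDP-glucose use 7 were tested, 2 with higher and 5 with lower means, and a median of -0.26. FRK2, a fructokinase that phosphorylates the fructose released by sucrose cleavage, stood at 130, 135 and 151 FPKM in WT. The slgols2 values were 226, 185 and 96.6 FPKM, above WT in replicates 1 and 2 and below it in replicate 3, as for SUS3 (log2 change 0.20, limma adjusted p = 0.851). Solyc11g011960.2 stood at 96.9, 87.0 and 86.8 FPKM in WT and at 58.7, 57.1 and 76.4 FPKM in slgols2. Its groups did not overlap, and its log2 change of -0.50 (SE 0.19) did not pass (limma adjusted p = 0.395). Such separation was also found for Solyc10g081660 and Solyc04g064610, lower in slgols2, and for Solyc11g067050, higher in slgols2. It held for 19.1% of gene models with a mean of at least 0.25 FPKM.

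**Figure D5:**
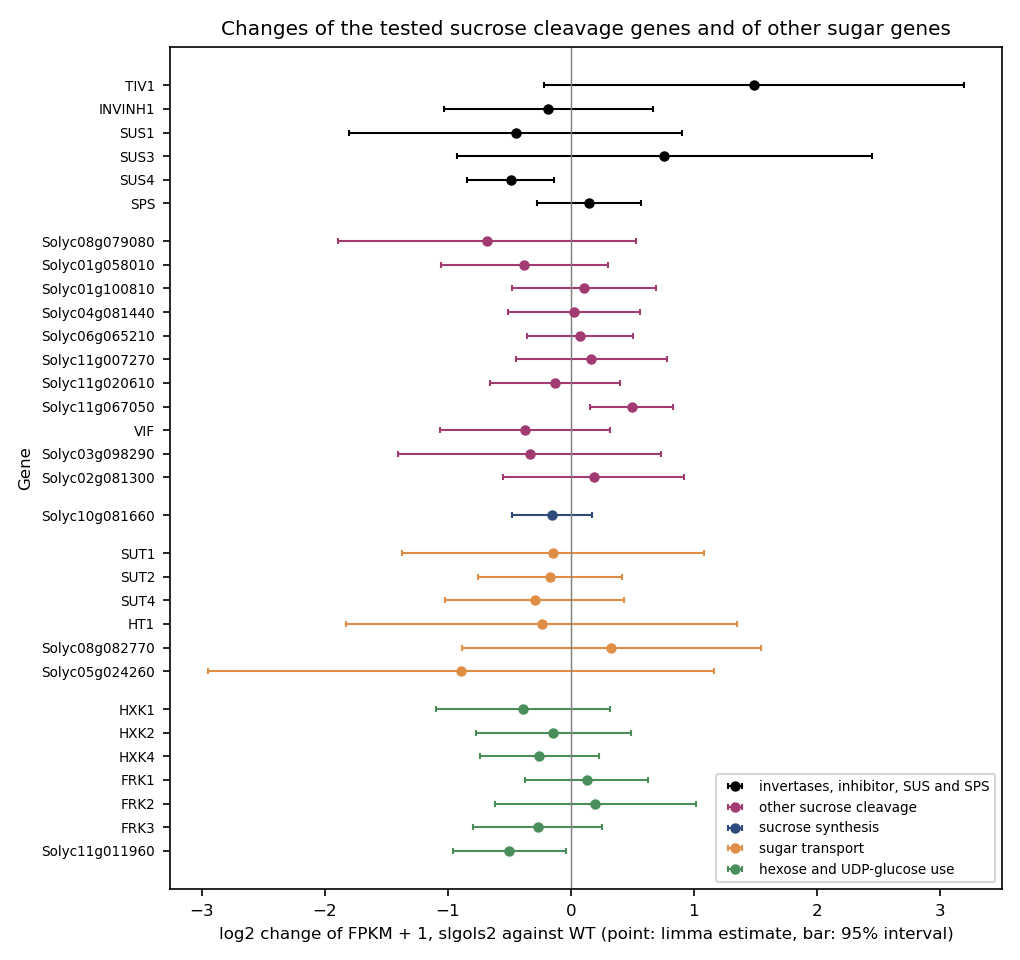
limma log2 changes (slgols2 against WT, points) with 95% intervals for the 6 tested invertase, inhibitor, SUS and SPS genes and for the 25 other tested sugar loci, coloured by list. TIV1 has the highest estimate, 1.49, and none of the 31 passed after adjustment over all genes, also where the unadjusted interval leaves out 0, as for SUS4.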

How the data were processed

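The deposited data are a table of FPKM values, per the file headers, with a column for each of 3 WT and 3 slgols2 libraries, grouped by sample title. Per the submitters' processing notes, the tools were HISAT2 2.1.0 and DESeq 1.38.3. The counter, build and annotation were not given in the sources used here. The 10 genes, the lists and the tests were chosen with earlier results of these data known.

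Genes with a mean of at least 1 FPKM were fitted with limma 3.58.1 in R 4.3.3 on log2(FPKM + 1), the model holding genotype alone and the variance prior an intensity trend, two-sided, Benjamini-Hochberg at 0.05 over 15695 genes. For low genes this scale understates the change. No exact permutation test was used, since 0.10 is the smallest p that 3 against 3 allows. Named genes are the 10 and, per list, those past the threshold or else the 2 most abundant.

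Depth was recovered from the steps between low FPKM values. Of 2213 low genes, 97.8% had steps giving a whole length within 0.01 bases. Reads then came out whole, within 6.8e-05 of a read, for 15694 of 15695 genes. Intervals (95%) and the limit for 0 reads (3 reads) cover counting error only. Recovery and fit were tested on simulated data. Names were accepted within 5% of the same place in gene order. No sequence is shown, as none was at hand.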

Additional observations from a re-analysis of the deposited data

How the results depend on the processing

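The count of genes past the threshold was 36 and moved with the settings, while that of the 10 genes stayed at 0 in most. Fits with a filter of 1 or 5 FPKM tested, and so could call, only 5 to 7 of the 10. With sample quality weights 6 of the 10 and 25 of the other sugar loci were tested. A pseudocount of 0.1 gave 20, no filter 55 (1 of the 10, LIN8), a mean of at least 5 FPKM 15, and the count was 2028 with sample quality weights (SUS3 and SUS4, 2 of the 10, and 4 of the other sugar loci), 1 with limma-voom on recovered reads, and, with 1 library left out, 9 without WT replicate 1 or 2, 34 without WT replicate 3, and 14, 21 and 273 without slgols2 replicates 1, 2 and 3 (0 of the 10 and 0 of the other loci in each). Quality weights gave slgols2 replicates 2 and 3 weights of 4.83 and 0.173, and 12.9% of all genes passed there; SUS3 and SUS4 had adjusted p of 0.0471 and 0.0254. Of settings chosen after the values were seen, the count was 81 with no filter and a pseudocount of 0.1 (1 of the 10, LIN8), 62 at a mean of at least 0.25 FPKM, 66 with a pseudocount of 0.1 there, 2 with limma-voom there, and 3 to 113 with no filter and 1 library left out (0 to 1 of the 10). Of 155 alternative fits of the 6 tested genes, 149 kept the direction and 6 did not. Many of them could not do otherwise, since a changed filter, variance model or replicate block leaves the estimate as it was. The 149 is therefore no measure of robustness. SUS1 was 0.092 and INVINH1 0.29 with quality weights. Over the fits without 1 library the log2 change ran from -0.85 to 0.21 for SUS1 and from -0.43 to 0.089 for INVINH1. It ran from -0.15 to 0.11 for Solyc04g081440, from -0.51 to 0.29 for SUT1, from -1.58 to 0.10 for Solyc05g024260 and from -0.051 to 0.56 for FRK2. For all of these the cause was not tested. A replicate block left 1 gene and 0 of the 10 past the threshold; nothing shows that equal numbers pair libraries, whose deviations correlated at -0.150, 0.0888 and -0.165 for numbers 1, 2 and 3. Median-ratio and quantile scaling moved the median change of all genes by 0.0008 and 0.0386. The level per coding length was not run, since no coding lengths were at hand. Depth limits LIN5 to LIN8, at 0 to 158 reads a library.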
